A study of Mus musculus with 4 samples.

Results

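Eosinophil granule and receptor genes were followed in RNA-seq of bone marrow cells depleted of mature blood lineages. The 8 genes, out of 22520 in the deposited tables, were Prg2, Prg3, Epx, Ear1, Ear2, Ear6, Il5ra and Ccr3, and they were chosen by name. All 8 were found under their GENCODE vM21 symbols. The libraries came from C57BL/6 mice, 2 wild type and 2 with a knockout of Cyba (Cyba-/-), 1 library per mouse. The labels name no treatment, and the ages of the mice are not given in the sources used here. Cyba encodes p22phox, the membrane subunit that several NADPH oxidases need to make superoxide. The magnetic depletion removes cells with surface markers of mature lineages, so the remaining cells are progenitors together with any cells that the antibodies leave behind.

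Eosinophils are granulocytes that arise in the bone marrow from myeloid progenitors under GATA1, C/EBP factors and PU.1. Interleukin 5 drives their expansion and survival, and eotaxins acting on CCR3 draw them into tissues. Their granules are packed with basic proteins that are made in large amounts while the cell matures in the marrow. These proteins are major basic protein, eosinophil peroxidase and, in mice, a family of eosinophil-associated ribonucleases that expanded in rodents.

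The libraries held 23713743 and 22420133 reads for wild type 1 and 2 and 23151254 and 22894818 for knockout 1 and 2. Cyba itself was read 1347 and 875 times in wild type, against 28 and 32 times in knockout, so each library matched its label. The progenitor markers Kit, Cd34 and Flt3 were present throughout. Kit ranged from 221.0 to 301 CPM (reads scaled to library size with TMM factors) and Cd34 from 155 to 277 CPM. Of the antigens of mature cells, Itgam (CD11b) was at 51.5 to 140.5 CPM, so transcripts of some were plentiful. Ptprc (CD45) was at 146.0 to 308 CPM, but progenitors also carry CD45, so its level does not mark mature cells. Cd5, an antigen of T cells, was between 0.223 and 1.16 CPM, and the neutrophil antigen gene Ly6g between 0.758 and 14.7 CPM.

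The granule genes were the most abundant of the set, and in Prg2, Prg3, Epx, Ear2 and Ear6 knockout 1 was the highest library and wild type 2 the lowest. No settled gene separated the genotypes, and knockout 2 lay below wild type 1 for all 7. The fold differences between the knockout mice were larger than those between the wild type mice for the granule genes. None of the 7 genes with settled values passed the unpaired edgeR test of genotype. Ear1 had values that could be read at either of 2 magnitudes in knockout 1, and it was kept out of the counts.

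Prg2 encodes major basic protein, the protein that forms the crystalline core of the granule. The gene (ENSMUSG00000027073, GRCm38 chromosome 2, 84980461 to 84983632, plus strand, 6 merged exons) had 10306 reads in wild type 1, 5708 in wild type 2, 30725 in knockout 1 and 9175 in knockout 2. On the scaled level these were 434, 254, 1366 and 392 CPM. Knockout 1 stood far above the other 3 libraries, and knockout 2 lay between the wild type libraries, so the groups overlapped. The log2 fold change of knockout over wild type was 1.35 (SE 0.66), with an adjusted p of 0.842 in the edgeR quasi-likelihood test over 13962 genes. Without knockout 1 the log2 fold change was 0.20.

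Prg3, the neighbouring gene for a paralogue of major basic protein (chromosome 2, 84988215 to 84993886, plus strand), was at 28.9, 17.0, 83.1 and 23.5 CPM in wild type 1, wild type 2, knockout 1 and knockout 2. The order of the libraries was that of Prg2. Its log2 fold change was 1.21 (SE 0.66, edgeR adjusted p = 0.842), and 0.05 without knockout 1. For every 1000 Prg2 reads there were 66.6 Prg3 reads in wild type 1, with an exact 95% interval from 61.5 to 71.9. The corresponding ratios were 66.9, 60.9 and 59.9 in wild type 2, knockout 1 and knockout 2. The ratio of these neighbours therefore moved little while the level of each differed several-fold between libraries. These intervals, and the others given for ratios of reads, cover counting error only.

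The stretch before the start of Prg3 is shown because it holds a pair of GATAA matches close together. GATAA is the core of the sites that GATA factors bind. The 60 bases run from 143 to 84 bases before the RefSeq start (GRCm38.p6, chr2:84988072-84988131, plus strand), and the capitals mark GATAA on the minus strand.
Prg3: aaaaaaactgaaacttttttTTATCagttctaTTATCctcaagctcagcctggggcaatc

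Epx encodes eosinophil peroxidase, the haem enzyme that makes hypohalous acids from the hydrogen peroxide that follows NADPH oxidase activity. The gene (chromosome 11, 87864000 to 87875536, minus strand) was at 195 and 94.9 CPM in wild type 1 and 2. It was at 532 and 134 CPM in knockout 1 and 2. Knockout 2 again lay between the wild type libraries. The log2 fold change was 1.20 (SE 0.75, edgeR adjusted p = 0.842). It was -0.10 without knockout 1, so the sign turned on that library. Relative to Prg2, Epx was highest in wild type 1, with 450.0 reads per 1000 Prg2 reads (435.0 to 466), against 373, 390.0 and 343 in wild type 2, knockout 1 and knockout 2. The interval of wild type 1 did not overlap that of any other library.

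**Figure D1:**
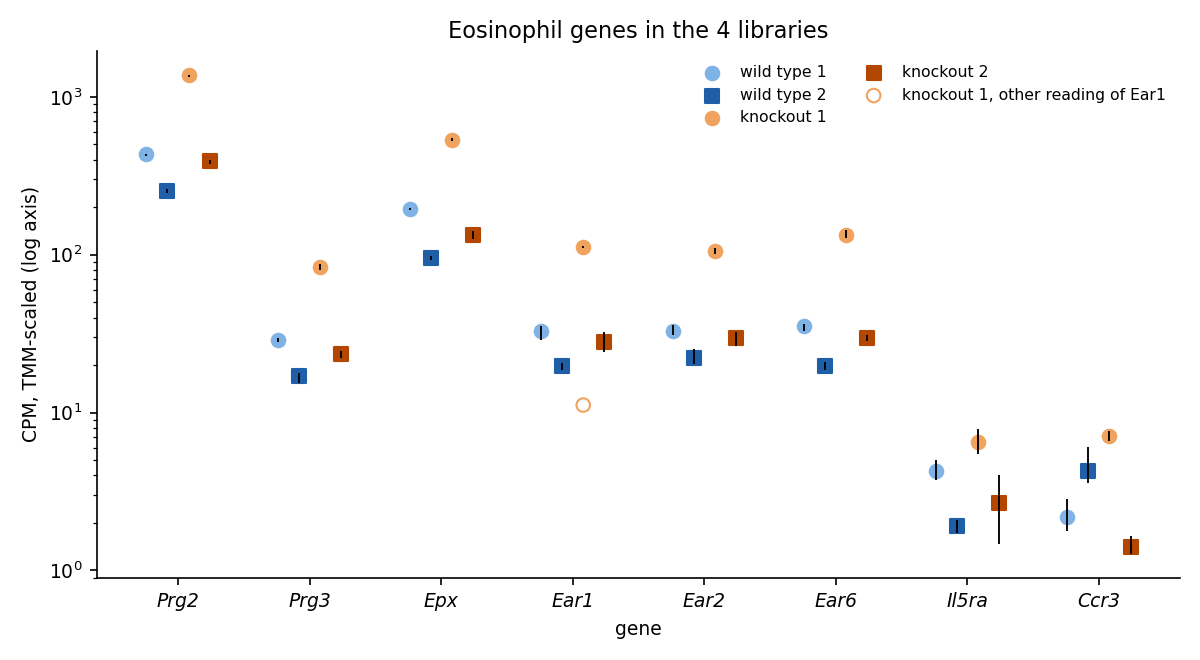
Level of each eosinophil gene in CPM on a log axis in the 4 libraries, with black lines from the lowest to the highest of the 4 sequencing lanes. Prg2 spans 254 to 1366 CPM, knockout 1 is the highest for every gene (Ear1 at its larger reading), and the open circle is Ear1 in knockout 1 at its lower reading of 11.2 CPM.

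The eosinophil-associated ribonucleases are secreted RNases that act on viruses and attract immune cells. The 3 measured members lie on chromosome 14. Ear2 spans 44102654 to 44103534 on the plus strand, Ear6 51853699 to 51854643 on the plus strand, and Ear1 43818765 to 43875517 on the minus strand. Their coding sequences are much alike. Ear1 and Ear2 were 95.1% identical over 471 aligned coding bases, whereas Ear6 was 87.4% identical to Ear1 and 87.7% identical to Ear2. Of the 31-base words in the GENCODE vM21 transcripts, Ear1 shared 73.6% and Ear2 60.5% with another gene, and Ear6 only 8.5%. The estimated counts of Ear1 and Ear2 thus depend on how the authors' quantification split shared reads, and those of Ear6 far less so.

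The stretch of coding bases 70 to 129, counted from 1 at the start codon, is shown for its differences among the 3 genes. It had the most of the 60-base windows searched. These windows began at codon starts and ended before the first gap in the alignment of Ear1 and Ear2, so later bases were not searched. Capitals mark the 15 positions at which they are not all alike. Ear1 and Ear2 differ at 4 of these bases, Ear1 and Ear6 at 15, and Ear2 and Ear6 at 11.
Ear1: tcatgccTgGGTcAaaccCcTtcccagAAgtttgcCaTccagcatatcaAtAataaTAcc
Ear2: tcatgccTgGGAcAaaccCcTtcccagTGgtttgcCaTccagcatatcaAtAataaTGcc
Ear6: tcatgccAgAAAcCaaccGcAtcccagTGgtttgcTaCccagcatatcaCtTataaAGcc

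Ear2 was at 32.9, 22.2, 105 and 29.9 CPM in wild type 1, wild type 2, knockout 1 and knockout 2. Knockout 2 lay between the wild type libraries, as for Prg2. The log2 fold change was 1.29 (SE 0.64, edgeR adjusted p = 0.842), and 0.13 without knockout 1. Ear6 was at 35.3, 19.6, 134 and 29.6 CPM in the same order. Its log2 fold change was 1.58 (SE 0.78, edgeR adjusted p = 0.842), and 0.12 without knockout 1. The Ear6 difference was the largest of the 7, above the log2 difference of 0.83 between the wild type mice and below that of 2.16 between the knockout mice.

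Within the family the proportions differed between libraries. There were 1.07 Ear6 reads for each Ear2 read in wild type 1, 0.883 in wild type 2, 1.27 in knockout 1 and 0.993 in knockout 2. Set against Prg2, Ear6 had 98.3 reads per 1000 Prg2 reads in knockout 1 (94.7 to 102). It had 81.3, 77.1 and 75.6 in wild type 1, wild type 2 and knockout 2. The interval of knockout 1 lay above the other 3. Ear2 did not stand out in knockout 1, with 77.2 reads per 1000 Prg2 reads there (74.0 to 80.5) against 75.9, 87.2 and 76.2 in the other libraries.

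Ear1 had 784 reads in wild type 1, 441 in wild type 2 and 657 in knockout 2. In knockout 1 the deposited digits could stand for 2511 or for 251 reads, and the model of the lanes gave the larger reading a probability of 0.763. At the larger reading Ear1 was at 112 CPM in knockout 1, close to the 105 CPM of Ear2, and the log2 fold change was 1.41 (SE 0.71, edgeR adjusted p = 0.842). At the smaller one it was at 11.2 CPM, the lowest of the 4 libraries, and the log2 fold change was -0.43 (SE 0.52, edgeR adjusted p = 0.849). The direction for Ear1 therefore turned on the reading. When the reads of all Ear genes were summed before the test, the log2 fold change was 1.43 with the larger reading and 1.06 with the smaller one (edgeR adjusted p = 0.842 for both). Ear10 and Ear14, other genes of the family, had at most 3 and 1 reads in any library.

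A stretch upstream of the RefSeq starts of the 3 Ear genes is shown because TTGCNNAA, a pattern that C/EBP factors bind, was found there in 2 of them. The 60 bases are from RefSeq, build GRCm38.p6. They lie at chr14:43819692-43819751 on the minus strand for Ear1, chr14:44102544-44102603 on the plus strand for Ear2 and chr14:51853636-51853695 on the plus strand for Ear6. The Ear1 stretch lies inside the longer GENCODE span of Ear1 given above, so RefSeq and GENCODE differ in where that gene starts. Capitals mark the 8 bases aligned with the match in Ear1. Ear1 and Ear2 do not differ in this stretch, and Ear6 differs from both at 5 bases, 1 of them in the capitals, where the pattern is then not met.
Ear1: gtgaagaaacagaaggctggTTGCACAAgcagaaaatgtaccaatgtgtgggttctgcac
Ear2: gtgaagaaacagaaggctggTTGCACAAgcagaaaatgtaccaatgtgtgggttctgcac
Ear6: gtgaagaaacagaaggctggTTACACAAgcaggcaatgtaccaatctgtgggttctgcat

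Over the whole 250 bases before the RefSeq start, Ear1 and Ear2 were 97.6% identical, and Ear1 and Ear6 78.2%. Promoter sequences were at hand for 7 of the 8 genes, Prg2 being the other. On both strands GATAA was matched in 3 of the 7 (Prg3, Il5ra and Ccr3), TTGCNNAA in Ear1 and Ear2, and GAGGAA, the core of sites of PU.1, in Ccr3. No match overlapped another. Of 32851 RefSeq promoters of the same length, 22.6% held GATAA, 9.6% TTGCNNAA and 23.3% GAGGAA. A match of so few letters is a description of the sequence and not a binding site.

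The receptor genes were expressed at a much lower level. Il5ra encodes the ligand-binding chain of the interleukin 5 receptor (chromosome 6, 106710357 to 106749037, minus strand). Its reads numbered 101 in wild type 1, 43 in wild type 2, 146 in knockout 1 and 63 in knockout 2, or 4.25, 1.92, 6.49 and 2.69 CPM. Knockout 1 was again the highest and wild type 2 the lowest, and the groups overlapped. The log2 fold change was 0.57 (SE 0.61, edgeR adjusted p = 0.843), and -0.19 without knockout 1.

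The 60 bases around the GATAA match of Il5ra, in capitals, run from 93 to 34 bases before the RefSeq start (GRCm38.p6, chr6:106749071-106749130, minus strand). They are shown for comparison with the pair in Prg3.
Il5ra: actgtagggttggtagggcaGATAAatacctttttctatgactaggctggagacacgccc

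Ccr3 encodes the eotaxin receptor (chromosome 9, 124021972 to 124031689, plus strand). It had 52 reads in wild type 1, 96 in wild type 2, 159 in knockout 1 and 33 in knockout 2, or 2.19, 4.28, 7.07 and 1.41 CPM. Unlike the other genes, it was higher in wild type 2 than in wild type 1, by 1.96-fold (1.38 to 2.79), and its lowest library was knockout 2. The log2 fold change was 0.39 (SE 0.84, edgeR adjusted p = 0.905). It was -1.18 without knockout 1 and -0.01 without wild type 1, so its sign rested on either of them.

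The receptors and the granule genes did not keep 1 ratio in all libraries. Ccr3 had 16.8 reads per 1000 Prg2 reads in wild type 2 (13.6 to 20.6). In wild type 1, knockout 1 and knockout 2 the ratios were 5.05, 5.17 and 3.60, and their intervals lay below that of wild type 2. Il5ra had its lowest ratio in knockout 1, with 4.75 reads per 1000 Prg2 reads (4.01 to 5.59), against 9.80 (7.97 to 11.9) in wild type 1, 7.53 (5.45 to 10.2) in wild type 2 and 6.87 (5.27 to 8.79) in knockout 2. The interval of knockout 1 stayed clear of that of wild type 1 only. Siglecf, the gene of an inhibitory surface lectin used to mark mouse eosinophils, also had its lowest ratio in knockout 1. It had 43.8, 50.1, 24.6 and 35.3 reads per 1000 Prg2 reads in wild type 1, wild type 2, knockout 1 and knockout 2, and the interval of knockout 1 (22.8 to 26.4) lay below the other 3.

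**Figure D2:**
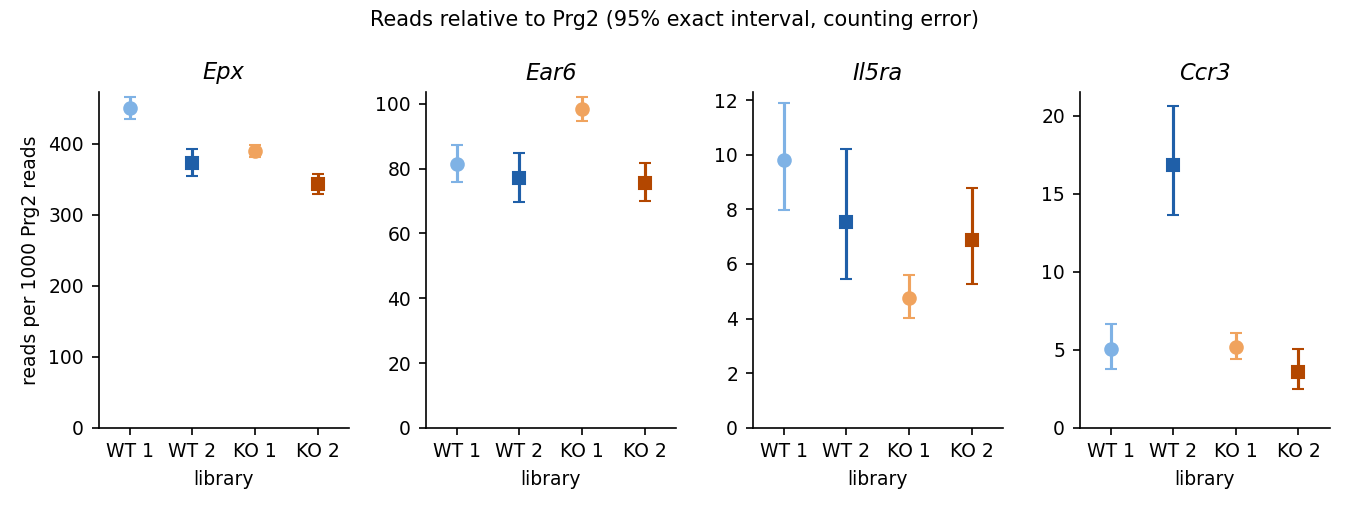
Reads of Epx, Ear6, Il5ra and Ccr3 per 1000 Prg2 reads in each library, with exact 95% intervals for counting error. Ccr3 is at 16.8 in wild type 2 and between 3.60 and 5.17 in the other libraries, and Ear6 is at 98.3 in knockout 1.

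Adgre1, which encodes F4/80, a surface protein of mouse macrophages and eosinophils, shared the order of Ccr3 in the wild type mice. It was at 7.70, 11.1, 20.4 and 11.5 CPM, with wild type 2 above wild type 1 and knockout 1 the highest. Adgre1 had 43.4 reads per 1000 Prg2 reads in wild type 2 against 17.8 in wild type 1. The macrophage complement genes C1qa and C1qb, picked after their values were seen, had the same order in the wild type mice, but 6 of the 9 tested monocyte and macrophage markers had wild type 1 above wild type 2. C1qa was at 2.99, 8.87, 11.1 and 4.57 CPM, and C1qb at 2.95, 6.15, 8.67 and 3.03 CPM. The part of macrophages in the level of Ccr3 was not tested.

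Levels of different genes were compared per length, as TPM, which divides by transcript length and library size. Prg2 had the highest mean over the 4 libraries, 834 TPM, with a range from 369 to 1764. Ear6, Epx and Ear2 followed with means of 93.6, 82.7 and 81.5 TPM, and their ranges over the libraries overlapped almost wholly. Prg3 had a mean of 53.6 TPM, from 24.3 to 111, which overlapped those 3 as well. Il5ra and Ccr3 had means of 1.09 and 1.00 TPM. Prg2 therefore lay above the other 6 settled genes without overlap, and the lowest granule value lay above the highest receptor value. Although the ranges of Ear6, Epx, Ear2 and Prg3 overlapped across libraries, Prg3 was the lowest of them within every library. It was at 43.1 TPM in wild type 1, where the next lowest was Ear2 at 58.6. The values were 24.3 against 34.9 for Epx in wild type 2. They were 111 against 171 for Ear2 in knockout 1, and 35.9 against 52.5 for Epx in knockout 2. The order of Ear6, Epx and Ear2 changed between libraries, and so did that of Il5ra and Ccr3.

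Summed over the 7 settled genes, eosinophil transcripts made up 732 CPM in wild type 1, 414 in wild type 2, 2234 in knockout 1 and 613 in knockout 2. Knockout 2 lay between the wild type libraries. The sums correspond to 0.0734%, 0.0415%, 0.217% and 0.0628% of the reads. Prg2 took between 59.2% and 63.9% of these reads in every library. In bulk RNA, more eosinophils and more RNA per eosinophil cannot be told apart.

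In the comparison of genotypes 0 of the 7 genes passed the edgeR test at an adjusted p of 0.05, where 0 of all 13962 genes passed (0.0%). At an unadjusted p under 0.05 the count was also 0 of 7, against 3.33% of all genes in either direction. Cyba itself did not pass after adjustment, with a log2 fold change of -5.19 (edgeR adjusted p = 0.315, DESeq2 adjusted p = 4.06e-44). A gene that did not pass the edgeR test is therefore not shown to be unchanged. DESeq2 called 0 of the 7 after adjustment, and 0.242% of all genes as higher and 0.0277% as lower in the knockout. Its unadjusted p was under 0.05 for 5 of the 7 (Prg2, Prg3, Epx, Ear2 and Ear6), against 1.97% of 22189 genes as higher. Those 22189 genes include weakly expressed ones that the expression filter removes, whereas the 7 had passed it, so the shares are not like for like. The adjusted values of DESeq2 for these 5 lay between 0.879 and 1.00. An exact permutation test of 2 against 2 libraries cannot give a p below 0.333.

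All 7 log2 fold changes were above 0, and 49.0% of all genes tested were. At least 1 were 5 of the 7, the granule genes, against 2.64% of all genes. The median was 1.21, against -0.007 over all genes. For 0 of the 7 did both knockout libraries exceed both wild type libraries, against 17.6% of all genes, and for 0 of the 7 did they fall below, against 16.1%. Knockout 1 was the highest library for 7 of 7, against 33.3% of all genes, and wild type 2 the lowest for 6 of 7, against 37.3%, Ccr3 being the exception. Without knockout 1 the median was 0.05 and Epx, Il5ra and Ccr3 were below 0. With any other library left out, the median was between 0.95 and 1.88. The 7 genes are not independent samples of the genotype, since they were measured in the same 4 mice.

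**Figure D3:**
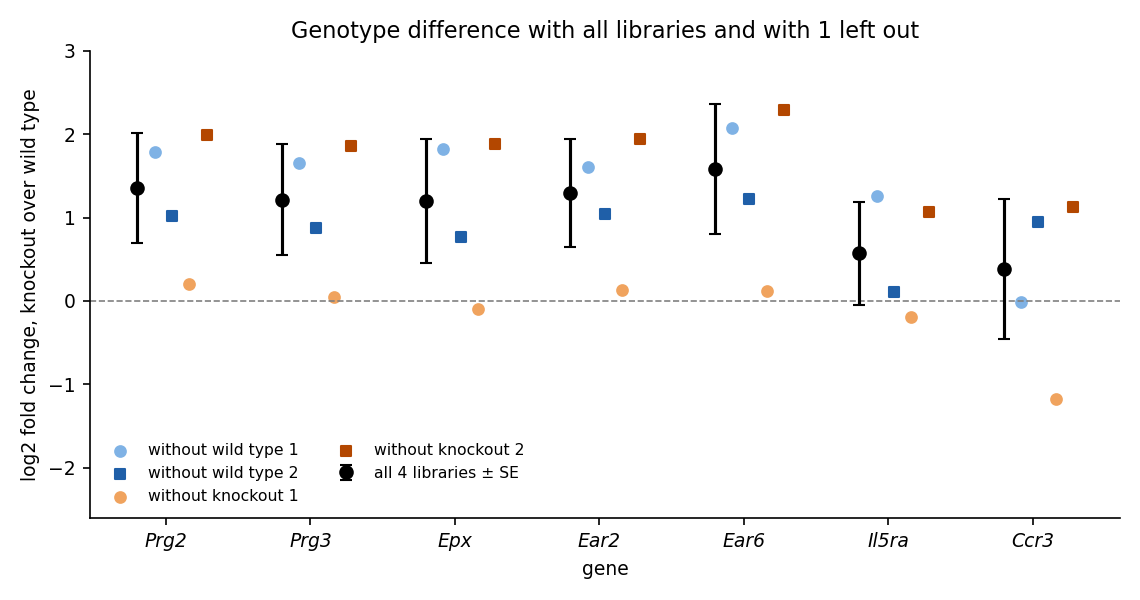
Log2 fold change of knockout over wild type for the 7 settled genes with all 4 libraries (black, ± SE) and with 1 library left out. Without knockout 1 the values lie between -1.18 and 0.20, and the median over the 7 is 0.05.

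The spread within the knockout was wide. Knockout 1 exceeded knockout 2 by 3.49-fold for Prg2 (3.41 to 3.57), 3.54-fold for Prg3, 3.97-fold for Epx, 3.53-fold for Ear2 and 4.53-fold for Ear6 (4.17 to 4.93). Few genes differed as much between these mice. Only 0.960% of all genes tested were as far apart as Prg2, and 0.466% as far apart as Ear6. The median absolute log2 difference between the knockout libraries was 0.205 over all genes. Il5ra differed by 2.41-fold (1.78 to 3.30) and Ccr3 by 5.02-fold (3.43 to 7.54).

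Between the wild type mice the differences were smaller. Wild type 1 exceeded wild type 2 by 1.70-fold for Prg2 (1.65 to 1.76), and 11.4% of all genes were as far apart. Epx differed by 2.06-fold, Prg3 by 1.70-fold, Ear2 by 1.48-fold and Ear6 by 1.80-fold. Il5ra differed by 2.22-fold (1.54 to 3.25). For Prg2, Prg3, Epx, Ear2 and Ear6 the intervals of the knockout ratio and of the wild type ratio did not overlap, whereas for Il5ra they did. The sequencing lanes of a library were close to each other for Prg2, and less so for genes with few reads. Il5ra ranged over the lanes of knockout 2 from 1.48 to 4.0 CPM. Agreement of the lanes was itself used to weigh the readings. Prg2 ranged over the lanes from 1334 to 1381 CPM in knockout 1 and from 376 to 399 CPM in knockout 2.

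**Figure D4:**
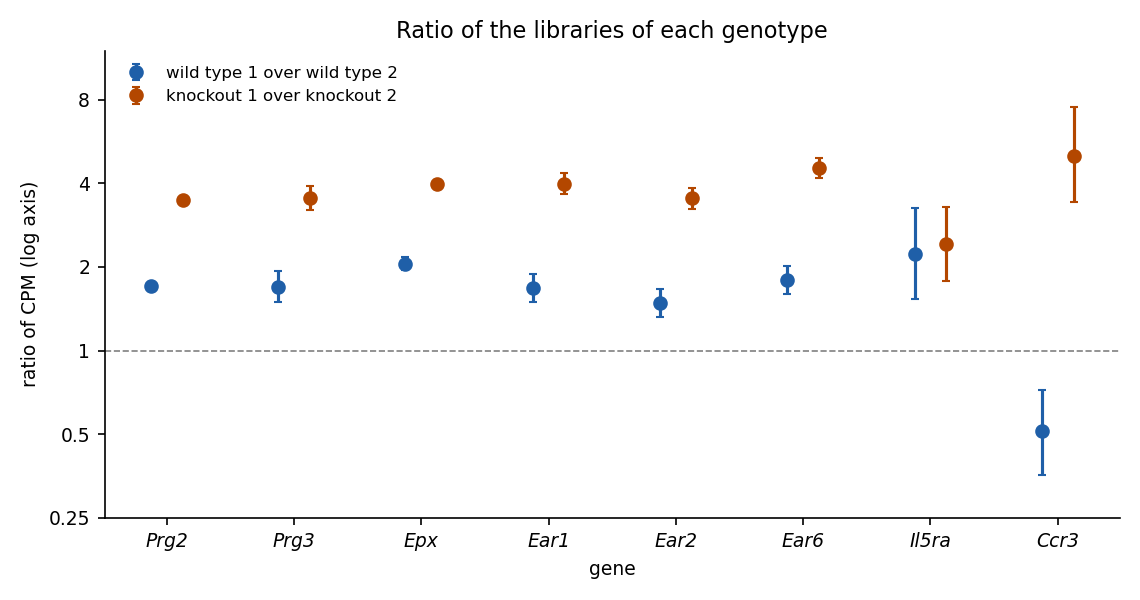
Ratio of the first to the second library of each genotype for each gene, on a log axis with exact 95% intervals for counting error; Ear1 is at its larger reading. The knockout ratios run from 2.41 to 5.02, and the wild type ratio of Ccr3, at 0.512, is the only value below 1.

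Other genes linked to eosinophils did not all follow the same order. Of 12 further eosinophil genes, 10 were in the tables and 6 were tested, and 0 passed in either direction. Siglecf was at 19.0, 12.8, 33.6 and 13.8 CPM in wild type 1, wild type 2, knockout 1 and knockout 2, with a log2 fold change of 0.58 (SE 0.49, edgeR adjusted p = 0.842). Il1rl1, the receptor of interleukin 33, was at 59.1, 79.7, 45.2 and 63.2 CPM, with knockout 1 the lowest. F5, coagulation factor V, was at 31.7, 26.4, 33.3 and 43.0 CPM. Alox15, added after its values were seen, was at 21.6, 6.95, 41.8 and 12.9 CPM, and it and Siglecf had the library order of Prg2. Knockout 1 was thus the highest for 3 of these 6 genes, namely Siglecf, Alox15 and Adgre1. It was not the highest for Il1rl1, F5 and Cd24a.

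Among 13 regulators of eosinophil development, 0 passed in either direction. Their median log2 fold change was 0.54, and 10 were above 0. Cebpe, a factor that granulocytes need for their secondary granules, was at 27.1, 12.7, 48.4 and 28.6 CPM, with wild type 2 the lowest and knockout 1 the highest. Its log2 fold change was 0.95 (SE 0.46, edgeR adjusted p = 0.842). Cebpb and Spi1, the gene of PU.1, had log2 fold changes of 0.98 and 0.61. Gata1 had the opposite order, with 93.0, 193, 49.6 and 126 CPM, so that knockout 1 was the lowest library and wild type 2 the highest. Gata1 is also expressed by erythroid and megakaryocytic progenitors. Its log2 fold change was -0.70 (SE 0.57, edgeR adjusted p = 0.842).

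Of 21 genes of interleukin 5 receptor signalling, 20 were tested and 0 passed in either direction, with a median log2 fold change of 0.25. Il5 itself had at most 1 read in any library. Csf2rb, the shared signalling chain of the interleukin 3, interleukin 5 and GM-CSF receptors, was at 153, 90.0, 201 and 147 CPM, a log2 fold change of 0.51 (SE 0.32, edgeR adjusted p = 0.842). Csf2ra, the ligand-binding chain for GM-CSF, had a log2 fold change of 0.83.

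Of 10 genes for ligands of CCR3 and other receptors of eosinophils, 9 were in the tables and 6 were tested. With edgeR 0 passed, and 1 had an unadjusted p under 0.05, against 3.33% of all genes. DESeq2 called 1, where it called 0.242% of all genes as higher. That gene was Ccr1, another chemokine receptor of myeloid cells, at 10.1, 7.49, 19.8 and 19.6 CPM, with both knockout libraries above both wild type libraries. Its log2 fold change was 1.16 (SE 0.22, edgeR adjusted p = 0.842, DESeq2 adjusted p = 0.0291). The libraries of Ccr3 did not fall in that order. Ccl24, the gene of an eotaxin, stayed between 0.713 and 1.09 CPM.

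Markers of other cells moved between the libraries as well. All 9 tested markers of basophils and mast cells had their highest value in knockout 1, and 8 of 9 their lowest in wild type 2. Summed, the list was at 1580, 567, 2093 and 935 CPM in wild type 1, wild type 2, knockout 1 and knockout 2. Mcpt8, a protease of basophils, was at 379, 142, 509 and 219 CPM. The mast cell protease genes Tpsb2, Cma1 and Mcpt4 had at most 3 reads in any library.

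For the primary granule markers, which mark promyelocytes, knockout 1 was the highest and wild type 2 the lowest library for 6 of 6. For 2 of the 6, Elane and Prtn3, knockout 2 lay above wild type 1, so both knockout libraries exceeded both wild type libraries. The 6 markers summed to 11530, 5583, 16010 and 10420 CPM in wild type 1, wild type 2, knockout 1 and knockout 2. Elane, neutrophil elastase, was at 1268, 614, 2044 and 1296 CPM. The eosinophil sum was 3.05 times as high in knockout 1 as in wild type 1, the primary granule sum 1.39 times and the basophil sum 1.32 times. On this pair the maturing neutrophil sum went from 455 to 1096 CPM and the monocyte and macrophage sum from 1544 to 2691 CPM. The ratios depend on the pair. From wild type 2 to knockout 1 the eosinophil sum went from 414 to 2234 CPM. The primary granule sum went from 5583 to 16010 CPM there, and the basophil sum from 567 to 2093 CPM.

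Markers of maturing neutrophils went another way. Knockout 2 was the highest library for 12 of 12 and knockout 1 for 0 of 12, and the list summed to 455, 1341, 1096 and 4863 CPM. S100a8 was at 123, 216, 320 and 746 CPM. For monocytes and macrophages, knockout 1 was the highest for 5 of 9, and the sums were 1544, 1138, 2691 and 2444 CPM. With edgeR 0 genes passed in any of these 4 lists. DESeq2 called 2, both among the monocyte and macrophage markers, Lyz2 and Fn1, where it called 0.242% of all genes as higher. The unadjusted edgeR p was under 0.05 for 4 of these 9 markers and 2 of the 12 neutrophil markers, against 3.33% of all genes. It was so for 0 in the other lists. Both knockout libraries exceeded both wild type libraries for 5 of the 9 monocyte and macrophage markers, against 17.6% of all genes. This held for 3 of 12 neutrophil, 2 of 6 primary granule and 1 of 9 basophil and mast cell markers. The part of the cells marked by these 4 lists in the eosinophil values was not tested.

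**Figure D5:**
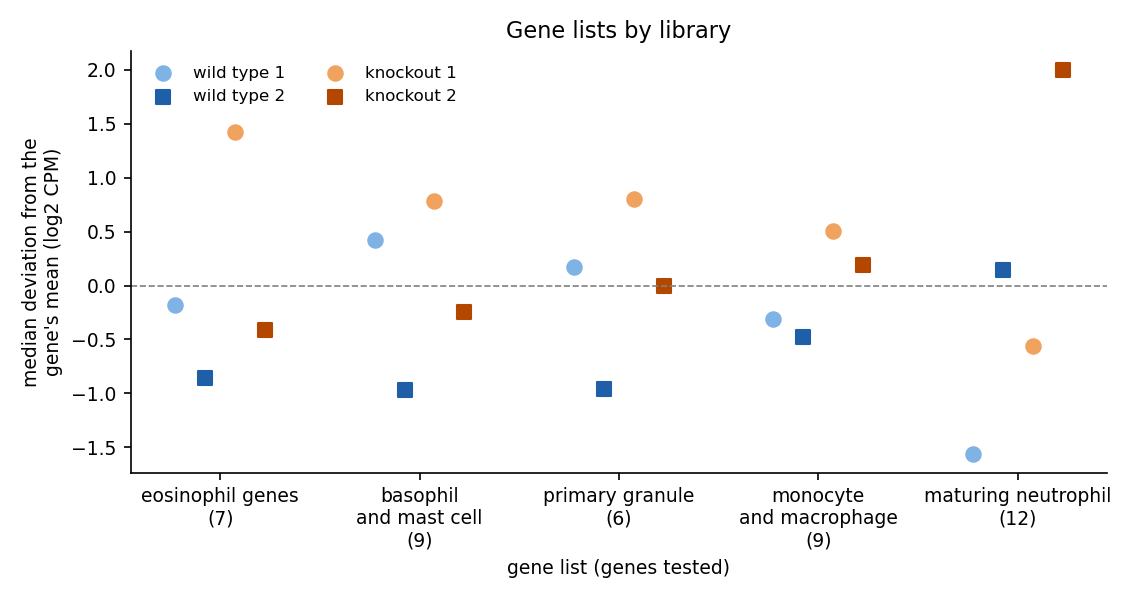
Median over the tested genes of each list of the deviation from the gene's own mean, in log2 CPM, for the 4 libraries. The eosinophil genes are at 1.42 in knockout 1 and -0.86 in wild type 2, and the maturing neutrophil markers are highest in knockout 2.

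Genes outside the set were ranked by how closely their deviations over the 4 libraries matched the median of the 7 genes, as the root mean square difference in log2 CPM among 11115 genes. The 6 nearest were Igkv14-111, Igkv12-46, Xlr3b, Clec4b2, Igkv3-5 and Ighv1-11, with differences from 0.074 to 0.231. Of these, 4 are variable segments of antibody genes. How far reads shared with similar segments affect their counts was not tested. Igkv14-111 was at 28.6, 18.1, 94.8 and 22.7 CPM in wild type 1, wild type 2, knockout 1 and knockout 2. Clec4b2, a C-type lectin receptor gene, was at 2.61, 0.981, 6.36 and 1.71 CPM. With 4 libraries many genes can share an order, so this likeness is a description.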

How the data were processed

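Each library was 1 table of estimated counts and 1 of TPM values, deposited by the authors, with 4 lane columns per the file headers; lanes were summed. Salmon, DESeq2 and GRCm38 are named in the submitters' processing notes. Their versions and the transcript annotation are not given in the sources used here. Decimal points were missing from these tables, which left 24.8% of count values and 53.2% of TPM values open to several readings. Readings were weighed per gene from the agreement of lanes, libraries, TPM and gene length, and a gene was kept where the expected error was at most 5% or 1 read (22191 of 22520 genes; Ear1 was not). Identifiers were matched to GENCODE vM21 (22384 matched). Sums were rounded and tested with the edgeR 4.0.16 quasi-likelihood F test (R 4.3.3, TMM factors, expression filter by genotype, two-sided, Benjamini-Hochberg adjustment over 13962 genes). SE is the log2 fold change divided by the root of F. P-values measure the spread between 2 mice per genotype. The steps were tested on simulated data for this comparison over 22191 genes. Of these, 99.7% were kept, 1 with a wrong total. Among the 200 given a changed level, 189 were kept, and the 1 with a wrong total was in this group. In the simulated data edgeR called 12 of 49 genes changed 2-fold, 44 of 47 changed 4-fold, and 6 of the unchanged ones. The simulation gave every gene the same spread and drew the libraries independently. The real genes differ in spread, and Cyba was not called in them, so these rates do not carry over.

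The genes and lists were chosen with earlier results of these data known. All 8 genes were named, and from each other list up to 3 tested genes with the smallest edgeR p plus Gata1, Cebpe, Spi1, Siglecf, Csf2rb and Mcpt8, of which those bearing on a result are given and some are not reported here; a few further genes were picked after their values were seen. Likeness was ranked for genes whose log2 CPM averaged 1 or more, after adding 0.5 CPM. Alternatives were DESeq2 1.42.0, library totals, no expression filter, limma 3.58.1 on log2 TPM (pseudocounts 1 and 0.1), other readings, a block by replicate number and fits that omit 1 library each. Intervals of ratios are exact (Clopper-Pearson, 95%). Sequences are from RefSeq (GRCm38.p6) and GENCODE vM21 and were aligned globally (match 1, mismatch -1, gap opening -3, extension -1).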

Additional observations from a re-analysis of the deposited data

How the results depend on the processing

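The edgeR test called 0 genes in all and 0 of the 7 eosinophil genes, and DESeq2 called 39 genes in all and 0 of the 7. Leaving out each library gave 0 to 3 called genes in all, the 3 being without knockout 2, and a median log2 fold change of the 7 genes from 0.05 to 1.88. The log2 fold change then ranged from -0.10 to 1.88 for Epx, -0.19 to 1.26 for Il5ra and -1.18 to 1.13 for Ccr3, the lowest value of each being without knockout 1, and it was -0.01 for Ccr3 without wild type 1. The signs of Epx and Il5ra thus rested on knockout 1, and that of Ccr3 on knockout 1 and wild type 1. For Ear1, added after the data were seen, it was -0.43 at the lower reading; the cause was the reading itself.

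With the replicate number as a block, edgeR called 1202 genes, 771 of them higher in the knockout (5.52% of those tested), and 4 of the 7 eosinophil genes, which were Prg2 (adjusted p = 0.0357), Epx (adjusted p = 0.042), Ear6 (adjusted p = 0.0462) and Prg3 (adjusted p = 0.0497). Deviations of same-numbered libraries from their group means correlated at 0.675 over the genes. With only 2 pairs, and no label saying that a number marks a shared litter, batch or day, the numbers were not taken to pair the mice, although the correlation is in the direction that pairing would give.

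Under library totals, no expression filter, both TPM pseudocounts and readings with no tie between libraries, the calls and signs of the genes tested did not change; Il5ra could not be read without the tie. The count of genes with both knockout libraries highest cannot be given with a library left out. Depth limits Il5ra and Ccr3, with 33 to 159 reads per library.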
